A study of Caenorhabditis elegans with 154 samples.

Results

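The cytosolic ribosomal protein genes of *C. elegans* were followed in single arrested L1s at 4 densities. Members were the genes whose WormBase symbol is rps, rpl or rla followed by a number, with the transcript rows of each gene summed. The rule took 79 of the 46743 genes in the tables: 31 small subunit genes (rps), 45 large subunit genes (rpl) and 3 genes of the ribosomal stalk (rla). They are spread over the genome, with 25 on chromosome I, 9 on II, 18 on III, 17 on IV, 8 on V and 2 on X.

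Embryos were released by bleaching, suspended in M9 buffer with polyethylene glycol and no food and left overnight to hatch and arrest at a density of 1, 5, 20 or 100 eggs/μL before single L1s were picked for RNA-Seq. The wild-type N2 series held 13, 22, 16 and 23 L1s at the rising densities. The *fog-2(q71)* series held 14, 22, 20 and 24 L1s, which were progeny of matings between *fog-2* males and females, since the XX animals of this mutant make no sperm. The embryos were of mixed age when they were suspended, and the labels do not say whether L1s of one density shared a tube, so each p-value measures the spread between animals, which may be technical. Values are TPM, a scale per transcript length on which every animal has the same total, so a level is relative to all other transcripts and the RNA content of an animal was not measured. In such values fewer cells of a type and less RNA per cell cannot be told apart.

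A ribosome is built from a small subunit, which reads the mRNA, and a large subunit, which joins the amino acids, each made of rRNA and of one copy of nearly every ribosomal protein. The stalk proteins form a flexible arm of the large subunit that recruits translation factors. Ribosomal protein mRNAs are among the most abundant in growing cells, and in many organisms their production falls when nutrients run out.

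In both series, 7243 to 17872 genes were at 1 TPM or more per animal. The mean number of such genes was higher at 100 than at 1 egg/μL, at 13314 against 10834 in *fog-2* and 10868 against 9657 in N2. The tables hold no read counts and the sequencing statistics of the libraries were not used here, so the part of depth in any value below was not tested. Markers of muscle, pharynx, intestine, neurons, hypodermis and the germ line were present, while 0 of 5 yolk genes and 0 of 5 sperm genes passed the filter on low values. Of 16 oocyte and early embryo genes, 6 rose at 100 against 1 egg/μL by limma across both strains at an adjusted p under 0.05, where 10.3% of all genes tested rose, and the mean of their summed TPM in *fog-2* was 102 ± 107 (SD, n = 24) against 29.99 ± 21.4 (SD, n = 14). In N2 it was 41.08 ± 39.6 (SD, n = 23) against 37.05 ± 35.4 (SD, n = 13). The part of embryo transcripts in the results below was not tested.

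Ribosomal protein genes ranked among the most abundant of the arrested L1. The median member had a mean of 836 TPM over all animals of both series, above 98.7% of the 16456 genes tested, whose median was 8.60 TPM. In all, 28 members had a mean of 1000 TPM or more, and 76 had a mean of 100 TPM or more. The 5 highest members held 29.0% of the summed TPM of the 79 genes.

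*rpl-12* stood far above the rest. It encodes a large subunit protein at the base of the stalk and lies on chromosome IV between 13239587 and 13240651 (minus strand, Ensembl annotation of WBcel235). Its mean of 12286 TPM was 3.65 times that of the next member, *rla-1* at 3363 TPM, and 14.7 times the median member. *rla-1*, on chromosome I between 2069086 and 2069575, encodes an acidic stalk protein. Next came *rpl-27* (3305 TPM), *rps-16* (2982 TPM), *rps-8* (2633 TPM) and *rpl-31* (2088 TPM), which encode proteins of both subunits.

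At the lower end, 3 members were scarcely present. *rpl-42* was at 0 TPM in 148 animals, *rpl-11.1* had a mean of 24.3 TPM and *rpl-41.1* a mean of 33.8 TPM. *rpl-37* (124 TPM), *rpl-24.2* (179 TPM) and *rla-2* (207 TPM), the other acidic stalk gene listed, followed. The other copies of the same names, *rpl-11.2* (1217 TPM) and *rpl-41.2* (1052 TPM), were well above the low ones. Apart from *rpl-42*, *rpl-11.1* and *rpl-41.1*, every member was above 0 TPM in every animal.

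The first question was whether arrest density moved the total given over to these genes. Their summed share of all TPM was highest at 1 egg/μL in both strains. In *fog-2*, L1s at 1 egg/μL had a lowest share of 5.80%, a median of 11.15% and a highest share of 18.1%. The shares ran from 2.65% to 13.7% with a median of 6.52% at 5 eggs/μL, and from 3.19% to 11.9% with a median of 6.18% at 20 eggs/μL. At 100 eggs/μL they ran from 3.90% to 13.2% with a median of 7.95%. The groups overlapped, but 23 of the 24 *fog-2* animals at 100 eggs/μL were below the median of the animals at 1 egg/μL.

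In N2, L1s at 1 egg/μL ran from 7.06% to 19.3% with a median of 9.87%. At 5 eggs/μL the lowest, median and highest shares were 4.38%, 9.17% and 19.3%, and at 20 eggs/μL they were 2.57%, 8.26% and 25.9%. At 100 eggs/μL the shares ran from 2.54% to 13.7% with a median of 5.54%. Here 16 of 23 animals at 100 eggs/μL fell below the lowest animal at 1 egg/μL, and 4 of 13 animals at 1 egg/μL were above the highest at 100 eggs/μL.

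**Figure D1:**
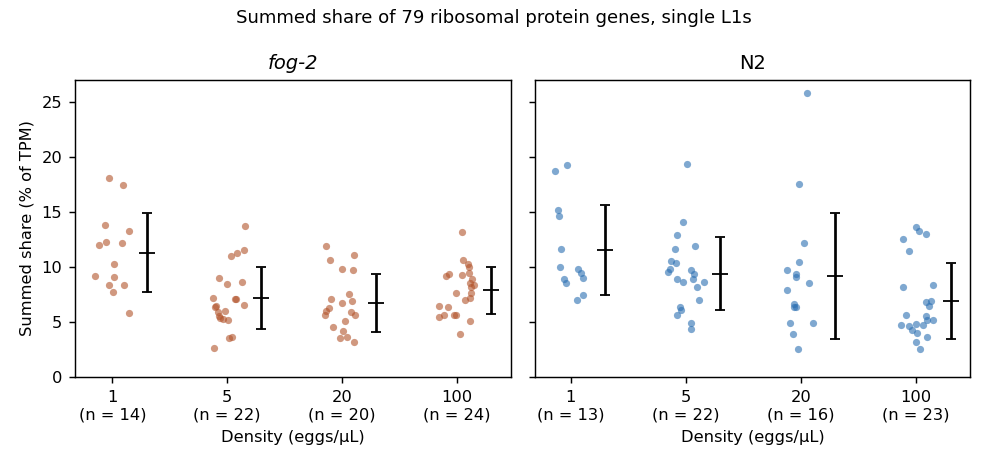
Summed share of the 79 ribosomal protein genes (percent of all TPM, y axis) in each single L1 against arrest density (eggs/μL, x axis), for *fog-2* (left) and N2 (right). Each point is 1 animal and the bars give the mean ± SD; the means at 1 egg/μL were 11.3% and 11.5%, and those at 100 eggs/μL were 7.90% and 6.92%, with overlapping ranges.

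Between 1 and 100 eggs/μL the mean share fell from 11.3% ± 3.59 (SD, n = 14) to 7.90% ± 2.15 (SD, n = 24) in *fog-2*. This was a difference of -3.39 percentage points ± 1.06 (SE; two-sided permutation test of 100000 resamples, p = 0.00078, adjusted over 12 comparisons p = 0.00234). In N2 the mean fell from 11.5% ± 4.11 (SD, n = 13) to 6.92% ± 3.48 (SD, n = 23), a difference of -4.62 points ± 1.35 (SE; permutation p = 0.00108, adjusted p = 0.00259). Averaged over the strains the difference was -4.01 points ± 0.858 (SE), with a permutation p of 1e-05, the smallest that these resamples can give. The changes in the 2 strains differed by -1.23 points ± 1.72 (SE), and this difference did not pass its own test (permutation of densities within strain, p = 0.506).

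The column headers of the deposited data give each L1 a second digit from 1 to 3, whose meaning no label gives. The mean shares were also compared within each digit. In *fog-2* the mean share at 1 and 100 eggs/μL was 8.53% ± 3.18 (SD, n = 3) and 7.34% ± 2.62 (SD, n = 8) with digit 1. It was 12.4% ± 4.14 (SD, n = 5) and 8.68% ± 1.44 (SD, n = 8) with digit 2, and 11.8% ± 3.12 (SD, n = 6) and 7.69% ± 2.26 (SD, n = 8) with digit 3. Among N2 animals with digit 2 the mean share was 10.1% ± 1.14 (SD, n = 4) at 1 egg/μL and 6.82% ± 3.96 (SD, n = 8) at 100 eggs/μL. With digit 3 it was 12.9% ± 4.73 (SD, n = 8) and 6.65% ± 2.58 (SD, n = 7). With digit 1 the 1 animal at 1 egg/μL had 7.06% and the animals at 100 eggs/μL had 7.27% ± 4.06 (SD, n = 8). Without the animals of digit 3, which include 8 of the 13 N2 animals at 1 egg/μL, the N2 difference was -2.41 points (permutation p = 0.197). In *fog-2* the difference without the animals of digit 3 was -2.94 points (permutation p = 0.0262).

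Small and large subunit genes both fell. In *fog-2* the small subunit share went from 4.07% ± 1.34 (SD, n = 14) to 2.80% ± 0.799 (SD, n = 24), and the share of the large subunit with the stalk from 7.23% ± 2.26 to 5.11% ± 1.38 in the same animals. In N2 the small subunit share went from 3.92% ± 1.30 (SD, n = 13) to 2.39% ± 1.29 (SD, n = 23), and the large subunit share from 7.63% ± 2.86 to 4.53% ± 2.20. All 4 falls passed the permutation test (largest adjusted p = 0.00164 over 4 tests). The log2 ratio of small to large subunit sums changed by -0.042 ± 0.034 (SE) in *fog-2* and by -0.017 ± 0.056 (SE) in N2, and averaged over both strains by -0.030 ± 0.033 (SE; permutation p = 0.398, adjusted p = 0.597 over 3 tests). With the mean of log2 values in place of sums, which gives every gene the same weight, the difference over both strains was -0.051 (permutation p = 0.0394).

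The shape over the series was set out by the steps between neighbouring densities. From 1 to 5 eggs/μL the *fog-2* share fell by 4.12 points ± 1.13 (SE; permutation p = 0.00048, adjusted p = 0.00192). In N2 the same step was -2.13 points ± 1.35 (SE; permutation p = 0.105, adjusted p = 0.205). Neither the step from 5 to 20 eggs/μL nor that from 20 to 100 eggs/μL passed the test in either strain. The last step was 1.13 points ± 0.731 (SE) in *fog-2* and -2.24 points ± 1.61 (SE) in N2. The strains' last steps differed by -3.37 points ± 1.76 (SE; permutation p = 0.0389), which did not pass after adjustment over 4 steps (adjusted p = 0.156). The N2 group at 20 eggs/μL held the highest animal of all, at 25.9%, and without it the mean of that group was 8.05% ± 3.73 (SD, n = 15) in place of 9.17% ± 5.73 (SD, n = 16).

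**Figure D2:**
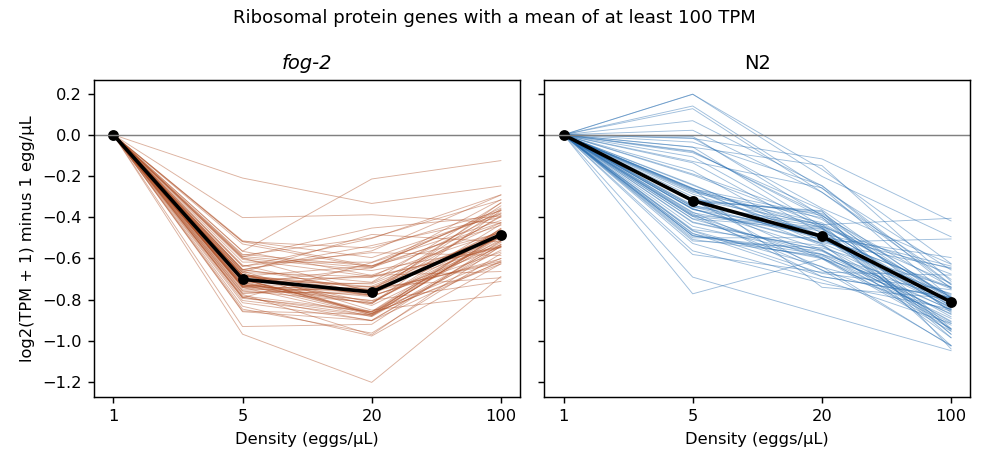
Mean log2(TPM + 1) of each of the 76 ribosomal protein genes with a mean of at least 100 TPM, as the difference from the same gene at 1 egg/μL (y axis), against density (eggs/μL, x axis), for *fog-2* (left) and N2 (right). Thin lines are genes and the black line is their median, which was at -0.70, -0.76 and -0.48 over the rising densities in *fog-2* and at -0.32, -0.49 and -0.81 in N2.

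The medians of the members followed the summed share. In *fog-2* the median of the 76 better expressed members was at -0.70 on the log2 scale at 5 eggs/μL, -0.76 at 20 and -0.48 at 100 eggs/μL, all relative to 1 egg/μL. In N2 it was at -0.32, -0.49 and -0.81. Whether the strains differ in a step was tested through the summed share above, where no step passed after adjustment.

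The next question was which members changed. Genes were tested with limma on log2(TPM + 1), after a filter that asked for 1 TPM or more in 13 or more animals of those at 1 and 100 eggs/μL, which 78 of the 79 members passed (*rpl-42* did not). Between 100 and 1 egg/μL, with both strains in one fit, 72 of the 78 members were lower and 0 were higher at an adjusted p under 0.05. Over all 16456 genes tested the share called lower was 2.05%, and the share called higher was 10.3%. All 78 members had a negative fold change, from -0.85 to -0.29, with a median of -0.65 on the log2 scale, where the median of all genes tested was 0.24. Members made up 21.3% of the 338 genes called lower.

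Other abundant genes were called in both directions. Among the 378 other genes with a mean of at least 400 TPM, 44 were lower and 29 were higher in the same fit, with a median log2 fold change of -0.02. Among the 145 others with a mean of at least 1000 TPM, 15 were lower and 14 were higher.

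The calls depended on the scaling and on the animals. Under quantile normalization 59 of 78 members were called lower, where 383 of the 16456 genes were, with a member median of -0.61. Under upper quartile scaling, which moved the median of all genes from 0.24 to 0.37, all 78 members stayed negative with a median of -0.45, and 6 were called. In that setting 156 of all genes were called lower and 2400 higher. Without the animals of header digit 3, which left 45 of the 74 animals, 0 of 78 were called by limma and 32 had an unadjusted p under 0.05. All 78 stayed negative, with a median of -0.44, and 55 of the 16456 genes were called lower. Without those of digit 2, 41 members were called with a median of -0.68, and with the number of detected genes as a covariate 45 were, with a median of -0.63. Over all genes 155 and 280 were called lower in these settings. With that covariate the median of all genes was -0.02 and 156 were called higher, in place of 0.24 and 1699 without it.

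**Figure D3:**
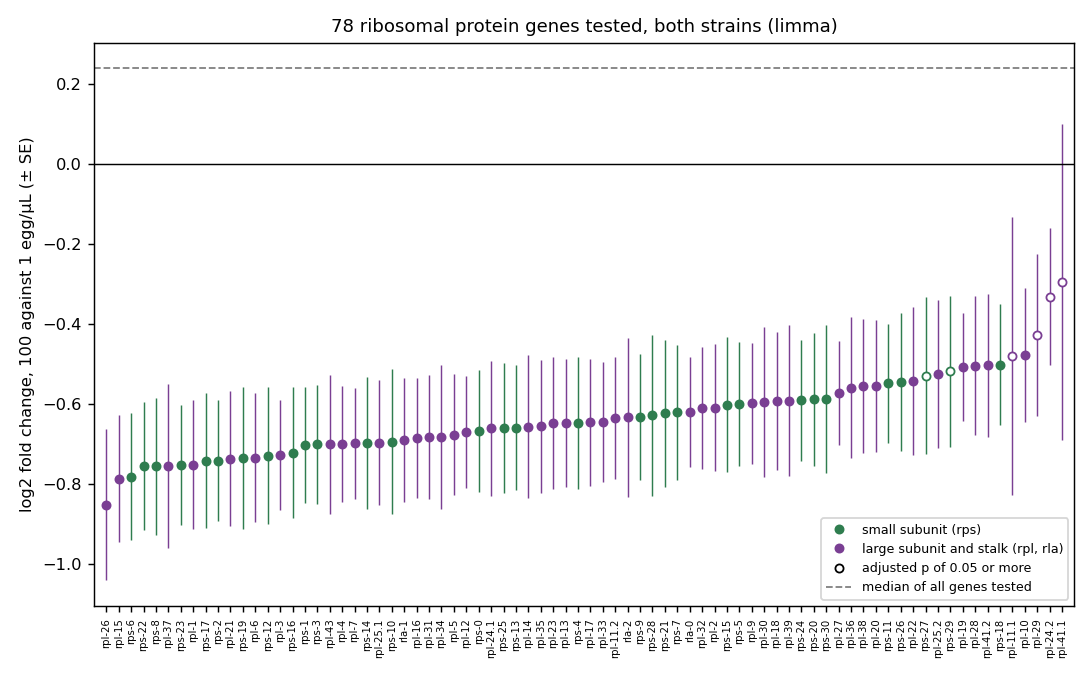
The log2 fold change at 100 against 1 egg/μL (y axis, both strains in one limma fit, bars are ± 1 SE) for each of the 78 ribosomal protein genes tested, in rising order along the x axis. All 78 lie below 0; filled symbols are the 72 past an adjusted p of 0.05, open symbols the 6 that are not, green is the small and purple the large subunit with the stalk, and the dashed line is the median of all genes tested at 0.24.

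Of the small subunit genes, 29 of 31 were lower, where 2.05% of all genes tested were, with a median log2 fold change of -0.66. *rps-6*, on chromosome I between 13952161 and 13953203, encodes the small subunit protein that growth-linked kinases phosphorylate. Its levels in *fog-2* ran from 463 to 1586 TPM with a median of 818 TPM at 1 egg/μL, and from 345 to 1037 TPM with a median of 563 TPM at 100 eggs/μL. In N2 they ran from 453 to 1439 TPM with a median of 756 TPM, and from 172 to 974 TPM with a median of 314 TPM. The groups overlapped in both strains, and the log2 fold change was -0.78 ± 0.16 (SE; limma adjusted p = 0.000498).

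*rps-23*, on chromosome IV between 12390298 and 12391053, encodes a protein of the decoding centre. In *fog-2* it ran from 856 to 2347 TPM with a median of 1393 TPM at 1 egg/μL, and from 311 to 1759 TPM with a median of 960 TPM at 100 eggs/μL. In N2 the medians were 1477 and 761 TPM, with ranges of 626 to 2770 and 262 to 1612 TPM. It overlapped between the densities and fell by 0.75 ± 0.15 (SE) on the log2 scale (adjusted p by limma = 0.000384). The other small subunit genes with the smallest p were *rps-2* at -0.74 ± 0.15, *rps-1* at -0.70 ± 0.14 and *rps-22* at -0.76 ± 0.16. Of the 2 that were not called, *rps-27* was at -0.53 ± 0.20 (limma adjusted p = 0.0614) and *rps-29* at -0.52 ± 0.19 (adjusted p = 0.0559), both also negative.

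Of the 47 large subunit and stalk genes tested, 43 were lower, where 2.05% of all genes were, with a median log2 fold change of -0.64. The smallest p was that of *rpl-3*, on chromosome III between 3867854 and 3869587, whose protein reaches toward the catalytic centre. In *fog-2* it ran from 1369 to 4320 TPM with a median of 2011 TPM at 1 egg/μL, and from 924 to 2887 TPM with a median of 1480 TPM at 100 eggs/μL. In N2 it ran from 1642 to 4217 TPM with a median of 2169 TPM, and from 612 to 2820 TPM with a median of 1183 TPM. It fell by 0.73 ± 0.14 (SE) on the log2 scale (adjusted p by limma = 0.000175), with overlapping groups.

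The most negative fold change of the members was that of *rpl-26* on chromosome II (8602785 to 8603581), a large subunit gene. Its medians were 963 and 592 TPM at 1 and 100 eggs/μL in *fog-2*, and 826 and 427 TPM in N2. The log2 fold change was -0.85 ± 0.19 (SE; limma adjusted p = 0.00157). *rpl-15*, on chromosome IV between 653480 and 654576, had medians of 802 and 481 TPM in *fog-2* and of 551 and 288 TPM in N2, and fell by 0.79 ± 0.16 (SE; adjusted p = 0.000461). *rpl-7* was at -0.70 ± 0.14 and *rpl-4* at -0.70 ± 0.14, both called.

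*rpl-12*, the highest member, moved as much as the typical one. In *fog-2* it ran from 9034 to 25338 TPM with a median of 13305 TPM at 1 egg/μL, and from 7001 to 18856 TPM with a median of 10644 TPM at 100 eggs/μL. In N2 it ran from 9467 to 36877 TPM with a median of 13151 TPM, and from 4128 to 22164 TPM with a median of 7392 TPM. It fell by 0.67 ± 0.14 (SE) on the log2 scale (adjusted p by limma = 0.000706). This single gene held 1.55% of all TPM in *fog-2* and 1.84% in N2 at 1 egg/μL, and 1.09% and 0.989% at 100 eggs/μL.

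All 3 stalk genes were lower, where 2.05% of all genes tested were. *rla-0*, which anchors the stalk to the large subunit, was at -0.62 ± 0.14 (SE), *rla-1* at -0.69 ± 0.16 and *rla-2* at -0.63 ± 0.20 (limma adjusted p = 0.00173, 0.002 and 0.0244). The median of *rla-1* went from 4746 to 3609 TPM in *fog-2* and from 3597 to 2250 TPM in N2.

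In addition, 4 large subunit genes were not called, and 2 of them were the lowest of the members tested. *rpl-11.1* was at -0.48 ± 0.35 (SE; limma adjusted p = 0.408) and *rpl-41.1* at -0.29 ± 0.40 (adjusted p = 0.701). *rpl-29* was at -0.43 ± 0.20 (adjusted p = 0.165). *rpl-24.2* was at -0.33 ± 0.17 (adjusted p = 0.212); RefSeq names it *rsl-24D1*, after a ribosome assembly factor related to the large subunit protein that *rpl-24.1* encodes.

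Taken strain by strain, the calls were fewer. In *fog-2* alone, 21 of 78 members were lower where 1.11% of all genes were, with 77 members negative and a median of -0.48. Without the animals of header digit 2, 3 were called (median -0.45), without those of digit 3, 0 were (median -0.34, 14 at an unadjusted p under 0.05), and without the animals with the fewest detected genes, 48 were (median -0.63). Over all genes 57, 41 and 198 were called lower in these settings. With the number of detected genes as a covariate 2 members were called, with 78 of 78 negative and a median of -0.55. Under upper quartile scaling 69 of 78 were negative in *fog-2*, with a median of -0.15, and 0 were called. Of all genes, 109 were called lower with the covariate and 83 under this scaling. In N2 alone 0 of 78 members were called by limma, where 0.17% of all genes were called lower. All 78 were negative in N2, 70 had an unadjusted p under 0.05, and the median was -0.81. *rps-6* had the smallest adjusted p there, at 0.11 with a log2 fold change of -1.05 ± 0.27 (SE). Without the animals of header digit 3, all 78 members stayed negative in N2 with a median of -0.58. Of these, 2 had an unadjusted p under 0.05 by limma. For the difference between the strains 0 of 78 members were called by limma, 0 had an unadjusted p under 0.05, and 0% of all genes were called lower.

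With both strains in one fit, members were already lower at 5 eggs/μL. Between 5 and 1 egg/μL, 15 of 78 members were lower by limma across both strains, against 0.219% of all genes tested. Their median log2 fold change was -0.51, against 0.13 over all genes. *rpl-25.1* had the smallest adjusted p (0.000882) at -0.81 ± 0.16 (SE), followed by *rla-1* at -0.71 ± 0.15 and *rps-6* at -0.75 ± 0.16. Without the animals of header digit 3, 0 of 78 were called in this step (median -0.37, 20 at an unadjusted p under 0.05), without those of digit 1, 1 was called (median -0.53), and without those of digit 2, 3 were (median -0.52). Over all genes 6, 11 and 15 were called lower in these settings. Within the strains, 1 member was called in *fog-2*, where 0.0425% of all genes were (*rla-1*, -0.86 ± 0.21 SE, adjusted p = 0.0476), and 0 in N2, where 0.0243% of all genes were. Unadjusted p-values under 0.05 numbered 73 in *fog-2* and 10 in N2. Without the animals of header digit 3, the N2 member median of this step went from -0.32 to -0.09. There 56 of 78 members were negative and 0 had an unadjusted p under 0.05 by limma. In *fog-2* the median went from -0.70 to -0.65, with 76 members negative and 41 at an unadjusted p under 0.05.

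For 20 against 5 eggs/μL, 0 members were called, where 0.553% of all genes were called lower, 1 had an unadjusted p under 0.05, and the member median was -0.13. For 100 against 20 eggs/μL, 0 members were called, where 0.255% of all genes were called lower, 0 had an unadjusted p under 0.05, and the median was -0.02. This last step turned with the scaling. Under upper quartile scaling, which moved its median over all genes from 0.15 to 0.32, the member median was 0.23 across both strains with 0 called. In *fog-2* alone the member median of this step went from 0.27 with 0 called to 0.79 with 50 members called higher by limma, where 17.1% of all genes were called higher and the median of all genes went from 0.23 to 0.56. In N2 the member median was -0.34 and, under this scaling, -0.36.

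Differences among the members were read relative to their sum. When every animal was scaled to the same summed ribosomal protein TPM, a setting chosen after the data had been seen that removes their shared change by construction, 0 of the 78 members differed between 100 and 1 egg/μL by limma, and 0 had an unadjusted p under 0.05. The log2 fold changes then ran from -0.20 for *rpl-26* to 0.32 for *rpl-24.2*. Over all 16456 genes tested the same fit called 90 lower and 5336 higher, with a median of 0.63. In the step from 1 to 5 eggs/μL, 11 members had an unadjusted p under 0.05 after this scaling, and 0 were called (smallest adjusted p = 0.0715). Over all genes 10 were called lower and 772 higher in that step.

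The members were also compared between animals of one density. With the mean of each density subtracted, each member was correlated with the summed level of the other members. The median r was 0.91 over 78 members and 80 animals in *fog-2*, and 0.88 over 74 animals in N2. The median r of the other 16378 genes tested with the summed members was 0.0043 in the *fog-2* series and -0.13 in that of N2. Among 1312 other genes with a mean of at least 100 TPM, 7.55% in *fog-2* and 4.80% in N2 had an r over 0.5, where all 76 members above that mean had one in *fog-2* and 75 had one in N2. The genes of one animal share its library, depth and TPM total, so these are descriptions.

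**Figure D4:**
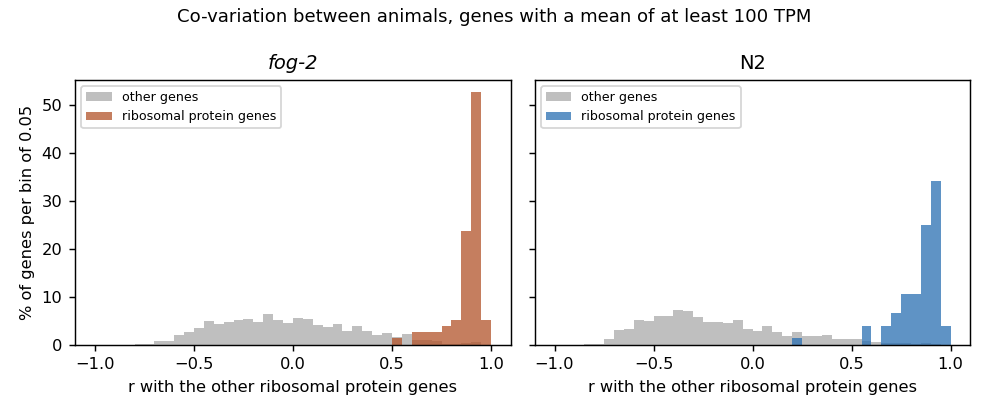
Distribution of Pearson's r between a gene's log2(TPM + 1) and the log2 summed TPM of the other ribosomal protein genes, over 80 *fog-2* L1s (left) and 74 N2 L1s (right), density means subtracted. Bars give the percent of genes per bin of 0.05 for 76 ribosomal protein genes (colored) and 1312 other genes (grey) with a mean of at least 100 TPM; the medians of the first were 0.91 and 0.88 and those of the second -0.06 and -0.25.

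Pairs of members were correlated with a median r of 0.82 in *fog-2* and 0.77 in N2. In N2 this median was 0.63 and 0.68 at 1 and 5 eggs/μL, and 0.87 and 0.79 at 20 and 100 eggs/μL. In *fog-2* it lay between 0.80 and 0.86 at each density.

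The members closest to the rest were *rps-2* (r of 0.96 in *fog-2* and 0.94 in N2), *rps-3* (0.96 and 0.94), *rps-7* (0.95 and 0.94) and *rps-25* (0.93 and 0.96), all of the small subunit. Those least close among members with a mean of at least 100 TPM were *rpl-24.2* (0.67 and 0.23), *rps-20* (0.61 and 0.56), *rpl-29* (0.77 and 0.56) and *rpl-38* (0.80 and 0.56). The median member varied between animals of one density with an SD of 0.69 on the log2 scale, and the most variable of those above 100 TPM were *rps-28* (0.86), *rpl-29* (0.85), *rla-2* (0.84) and *rps-27* (0.83).

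Genes outside the rule that followed the sum most closely in both strains were themselves mostly of the translation machinery. Of the 10 non-members with the highest r, taking the lower of the 2 strains and a mean of at least 50 TPM, *rack-1* came first (0.93 in *fog-2* and 0.92 in N2). It encodes a scaffold protein bound to the small subunit. *ubq-2*, which encodes ubiquitin fused to a large subunit protein, was at 0.92 and 0.93. *ubl-1*, whose ubiquitin-like part is fused to a small subunit protein, was at 0.87 and 0.87. *Y37E3.8*, *W01D2.1* and *rpl-36.A*, which RefSeq names as large subunit genes, were also among the 10. Elongation factors gave 2 more, *eef-1A.1* (0.93 and 0.89), which carries tRNA to the ribosome, and *eef-1B.1* (0.91 and 0.80). *B0250.3* and *Y73B3A.18* completed the list, and no role is given for them here.

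Ribosomal protein genes with names outside the rule moved as the members did. *rpl-7A*, with a mean of 4588 TPM above all members but *rpl-12*, was at -0.60 ± 0.16 (SE; limma adjusted p = 0.00855) for 100 against 1 egg/μL. *ubl-1* was at -0.83 ± 0.15 (adjusted p = 5.32e-05) and *rack-1* at -0.78 ± 0.15 (adjusted p = 0.000129). Thus 3 of the 3 genes listed were lower, where 2.05% of all genes tested were. *ubl-1* was also lower in N2 alone, at -1.05 ± 0.25 (adjusted p = 0.0481). The genes that RefSeq names *rpl-36A*, *rpl-27A*, *rpl-37.1* and *rplp-2.1* were at -0.55, -0.70, -0.56 and -0.59, each past the threshold.

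The rest of the translation machinery was read from lists of named genes. Of 8 elongation factor genes, 7 were lower and 0 higher at 100 against 1 egg/μL across both strains, where 2.05% of all genes were lower and 10.3% higher, with a median of -0.58. *eef-1B.2* was at -0.86 ± 0.17 (SE), *eef-1B.1* at -0.76 ± 0.13, *iff-2* at -0.66 ± 0.14 and *eef-1A.1* at -0.59 ± 0.13, each past the threshold by limma. Of 27 initiation factor and poly(A)-binding protein genes tested, 3 were lower and 0 higher, against the same shares of all genes, with a median of -0.24. The 3 were *ife-1*, which binds the mRNA cap, at -0.76 ± 0.20, *eif-3.B* at -0.73 ± 0.20 and *pab-1*, which binds the poly(A) tail, at -0.60 ± 0.18.

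Of 27 genes for ribosome assembly and RNA polymerase I tested, 6 were lower and 0 higher, against 2.05% and 10.3% of all genes, with a median of -0.30. The 4 with the smallest p were *fib-1*, the nucleolar methyltransferase fibrillarin, at -1.26 ± 0.31 (SE), *nst-1* at -0.93 ± 0.27, *lpd-7* at -0.61 ± 0.18 and *lpd-6* at -1.03 ± 0.33. Of 68 mitochondrial ribosomal protein genes tested, which serve the separate ribosomes of mitochondria, 2 were lower (*mrps-22* at -1.02 ± 0.35 and *mrpl-20* at -1.07 ± 0.37), against 2.05% of all genes, and the median was -0.17. Of 14 regulators of ribosome production, such as *let-363*, the worm TOR kinase, 0 were called in limma and the median was 0.09. Mitochondrially encoded transcripts had 9 of 18 genes tested higher and 0 lower, against 10.3% and 2.05% of all genes.

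Across animals, with density means subtracted, the log2 summed share of the members was set against 6 measures in each strain. The measures of one animal share its library, depth and TPM total, so these relations and those of the next paragraphs are descriptions despite their p-values. It rose with the summed elongation factors in *fog-2* (Pearson's r = 0.79, Spearman's rho = 0.82, 80 animals) and in N2 (r = 0.73, rho = 0.70, 74 animals). The permutation p was 1e-05 for each, the smallest these resamples can give, and 3e-05 after adjustment over 12 relations. Without the 2 animals farthest from the median of the elongation factors r was 0.78 and 0.66, and within the densities it ran from 0.73 to 0.89 in *fog-2* and from 0.29 to 0.89 in N2. It also rose with the initiation factors in *fog-2* (r = 0.66, rho = 0.68) and in N2 (r = 0.48, rho = 0.60), each with a permutation p of 1e-05 for both coefficients and an adjusted p of 3e-05. Without the 2 farthest animals r was 0.71 and 0.66, and within the densities it ran from 0.21 to 0.87 in *fog-2* and from -0.16 to 0.88 in N2, where the N2 animals at 1 egg/μL did not share the direction.

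In N2 the share was lower in animals with more detected genes (r = -0.36, permutation p = 0.00252, adjusted p = 0.00504; rho = -0.39, permutation p = 0.00074, adjusted p = 0.00178). This held without the 2 farthest animals (r = -0.35) and in sign at each density, from -0.79 at 20 eggs/μL to -0.20 at 100 eggs/μL. In *fog-2* the same relation did not pass the test (r = 0.19, permutation p = 0.09, adjusted p = 0.102; rho = 0.06, permutation p = 0.586, adjusted p = 0.586). The part of the number of detected genes in the N2 fall was read through a covariate, with which the N2 difference between 100 and 1 egg/μL was -4.09 points (permutation p = 0.00408) and that in *fog-2* -3.46 points (p = 0.00315).

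The other relations differed between the strains in their tests, and the difference between strains was not tested. Mitochondrially encoded transcripts held 0.121% to 0.222% of all TPM in the N2 group means and 1.60% to 2.31% in those of *fog-2*. In N2 the share was lower in animals with more mitochondrially encoded transcripts (r = -0.37, permutation p = 0.00077, adjusted p = 0.00185; rho = -0.31, permutation p = 0.00747, adjusted p = 0.0128), with r of -0.35 without the 2 farthest animals and values from -0.61 to -0.26 within the densities. In *fog-2* r was 0.19 (permutation p = 0.0936, adjusted p = 0.102) and rho 0.25 (permutation p = 0.0293, adjusted p = 0.0391), with r of 0.29 without the 2 farthest animals and values from -0.30 to 0.36 within the densities. Ribosome assembly genes gave r = -0.33 and rho = -0.36 in N2 (permutation p = 0.00577 and 0.00224, adjusted p = 0.00989 and 0.00448). Without the 2 farthest animals r was -0.35, and within the densities it was -0.80 at 1, -0.41 at 5, 0.09 at 20 and -0.44 at 100 eggs/μL, so the relation did not hold at 20 eggs/μL. In *fog-2* r was -0.23 and rho -0.19 (permutation p = 0.0534 and 0.095, adjusted p = 0.0712 and 0.114). Mitochondrial ribosomal proteins gave r = -0.31 and rho = -0.29 in N2 (permutation p = 0.0111 and 0.0157, adjusted p = 0.0166 and 0.0236), with r of -0.30 without the 2 farthest animals and values from -0.63 to -0.18 within the densities. In *fog-2* they gave r = -0.15 and rho = -0.15 (permutation p = 0.174 and 0.193, adjusted p = 0.174 and 0.21).

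Some members come as pairs by their numbered names, and reads shared by both genes of a pair could have been split between them in the counting. *rpl-25.1*, on chromosome X between 4715178 and 4715796, and *rpl-25.2*, on chromosome I between 8329062 and 8329647, both encode a protein near the exit tunnel of the large subunit. In *fog-2*, *rpl-25.2* held a mean of 21.99% of the pair's TPM at 1 egg/μL, 28.3% at 5 eggs/μL, 28.3% at 20 and 22.3% at 100 eggs/μL. In N2 it held 31.1%, 44.7%, 37.9% and 35.1%. Between 100 and 1 egg/μL its share differed by 2.13 points ± 2.94 (SE; permutation p = 0.479), and both copies were lower in the limma fit, *rpl-25.1* by -0.70 ± 0.16 and *rpl-25.2* by -0.52 ± 0.19 on the log2 scale.

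*rpl-24.2* is paired with *rpl-24.1* by name only, since RefSeq names it after a related assembly factor. It made up 17.7% ± 3.73 (SD, n = 14) of this pair at 1 egg/μL and 19.7% ± 4.88 (SD, n = 24) at 100 eggs/μL in *fog-2*. In N2 it made up 22.8% ± 8.60 (SD, n = 13) and 30.1% ± 13.6 (SD, n = 23). The difference over both strains was 4.64 points ± 1.98 (SE; permutation p = 0.0413, adjusted over 4 pairs p = 0.0826). *rpl-41.1*, whose rows the tables mark as a pseudogene along with those of *rpl-41.2*, held 1.58% to 4.14% of its pair in the group means (difference 1.04 points ± 0.387 SE, permutation p = 0.0308, adjusted p = 0.0826). *rpl-11.1* held 1.18% to 2.64% of its pair (difference -0.109 points ± 0.366 SE, permutation p = 0.754). None of the 4 pairs passed after adjustment.

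Transcript rows gave a further view of 5 members. Unproductive splice forms of several ribosomal protein genes, which nonsense-mediated decay removes, are known in *C. elegans*. The annotation lists noncoding transcripts for *rpl-1*, *rpl-3*, *rpl-12*, *rpl-30* and *rps-23*, and the tables hold rows of their own for these. The noncoding row held 9.06% of the TPM of *rpl-12*, 20.1% of that of *rps-23*, 21.2% of that of *rpl-3* and 34.2% of that of *rpl-30*, and the 2 noncoding rows of *rpl-1* held 8.03% and 7.85%. RSEM divides reads among overlapping transcripts, so these shares are estimates.

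**Figure D5:**
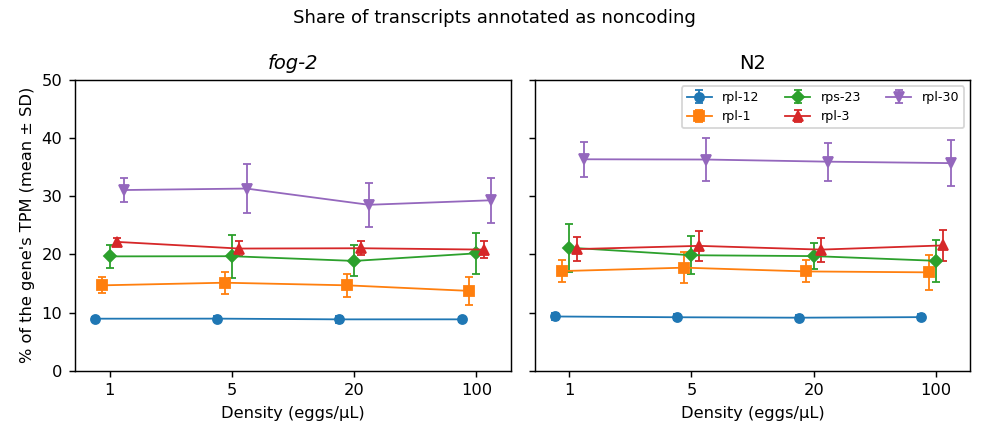
Percent of a gene's TPM in transcripts annotated as noncoding (y axis, mean ± SD over L1s) against density (eggs/μL, x axis), for 5 ribosomal protein genes in *fog-2* (left) and N2 (right). The lines are nearly flat, and 0 of the 5 genes passed the test between 1 and 100 eggs/μL.

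No change of these shares with density passed the test. That of *rpl-12* was 8.95% ± 0.356 (SD, n = 14) at 1 egg/μL and 8.84% ± 0.454 (SD, n = 24) at 100 eggs/μL in *fog-2*, and 9.33% ± 0.555 (SD, n = 13) and 9.22% ± 0.455 (SD, n = 23) in N2. The difference over both strains was -0.112 points ± 0.112 (SE; permutation p = 0.315). For the others it was -0.584 ± 0.510 (*rpl-1*), -0.347 ± 0.443 (*rpl-3*), -1.21 ± 0.762 (*rpl-30*) and -0.869 ± 0.818 (*rps-23*), and 0 of 5 passed (smallest adjusted permutation p = 0.398). Tested singly with limma, the noncoding and coding rows both fell, as in *rpl-3* with -0.75 ± 0.14 (SE) for the noncoding and -0.72 ± 0.14 for the coding row, and in *rps-23* with -0.82 ± 0.17 and -0.74 ± 0.15. Since RSEM divides shared reads between such rows, their falls are not separate results.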

How the data were processed

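Single L1s were sequenced after Smart-Seq2 cDNA synthesis and Nextera tagmentation. After rRNA reads and PCR duplicates had been taken out, the authors estimated TPM per transcript with RSEM, and deposited 47639 transcript rows for each strain. Bowtie and ce11 are also named in the submitters' notes. TPM keeps no counts, and the study's sequencing statistics were not used here. Of 154 columns, 146 were matched to 1 labelled animal and 8 to their group only, and 0 were left out. Rows were named from the Ensembl annotation of WBcel235 (release 115) and then RefSeq (292 rows without a name), and the rows of a gene were summed.

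Genes that reached 1 TPM in 13 or more of 74 L1s (both outer densities) were tested on log2(TPM + 1) in limma 3.58.1 (R 4.3.3), with a mean-variance trend, strain as covariate, Benjamini-Hochberg adjustment over all genes tested and a threshold of 0.05. A fold change on this scale understates that of low genes. Steps were fitted over all animals. Shares and correlations used two-sided permutation tests of 100000 resamples in Python 3.11.15 (numpy 2.4.6, scipy 1.17.1, pandas 2.3.3, matplotlib 3.10.9), permuted within strain or density. Among the alternatives, the test on medians used 20000 resamples and each test leaving out 1 animal used 5000. Test code was checked on simulated data. The strains were separate dilution series with a table each, so levels were not tested between strains, and fits over both tested changes with density within each strain.

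Named members are the 6 highest and 6 lowest, up to 10 with the smallest p among those called, all numbered copies, the stalk genes, and the 4 at each end of co-variation and with the largest spread. Members not called, *rpl-26* and ribosomal protein genes known by RefSeq name were named after their values were seen. Named others are the 10 with the highest r and up to 4 called genes per list. Members, lists and tests were chosen with earlier results of these data known, and the tests on pairs and noncoding rows after the values were seen. The header digit was read after the data had been seen. Alternatives changed the pseudocount, filter, scaling, covariates, denominator and animals.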

Additional observations from a re-analysis of the deposited data

How the results depend on the processing

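For 100 against 1 egg/μL across both strains, 72 members were called, and 6 under upper quartile scaling, 45 with detected genes as a covariate, 41 and 0 without the animals of header digits 2 and 3 (medians of -0.68 and -0.44), and 0 when scaled to the same ribosomal protein sum, which removes the shared change by construction. In the order given, 338, 156, 280, 155, 55 and 90 of all genes were called lower. The 21 calls in *fog-2* alone became 32 with a pseudocount of 0.1, 13 with no filter on low values, 10 under quantile normalization, 0 under upper quartile scaling, 2 with detected genes as a covariate (median -0.55, 78 of 78 negative), 7 with no mean-variance trend (median -0.48), 48 without the animals with the fewest detected genes, 3 and 0 without header digits 2 and 3 (medians of -0.45 and -0.34) and 0 at equal ribosomal protein sums. Over all genes the 182 lower ones became 174, 143, 177, 83, 109, 140, 198, 57, 41 and 70 in the same order. The 15 calls for 5 against 1 egg/μL became 24 with a mean of at least 10 TPM, 9 under quantile normalization, 3 under upper quartile scaling, 1, 3 and 0 without header digits 1, 2 and 3, and 0 at equal sums. Over all genes the 36 lower ones became 42 (of 7605 tested), 46, 21, 11, 15, 6 and 10. Leaving out by the digit in the sample titles kept every *fog-2* animal at 1 egg/μL, since most of those titles match no column. It gave 13 calls across both strains without digit 3 (median -0.49), 2 and 10 in *fog-2* without digits 1 and 3, and 3, 7 and 0 for 5 against 1 egg/μL without digits 1, 2 and 3. In the order given, 168, 128, 133, 15, 25 and 5 of all genes were called lower. The header digit was used after the data had been seen. The causes of the other shifts were not tested. The summed share kept its direction in every alternative run for it, which did not include quantile normalization or upper quartile scaling. Its permutation p stayed under 0.05 in each except N2 without digit 3 (-2.41 points, permutation p = 0.197). These p-values were not adjusted over comparisons, and in *fog-2* without header digit 3 the permutation p was 0.0262. Leaving out each animal in turn gave -3.81 to -2.87 points in *fog-2* and -4.997 to -3.98 in N2. The ratio of small to large subunit had an unadjusted permutation p under 0.05 only with the mean of log2 values over both strains (-0.051, p = 0.0394). That p was not adjusted over the 3 comparisons.

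No label says that the digit pairs animals. In N2 the same-digit correlations between the deviations at 1 and 100 eggs/μL were 0.04, 0.17 and 0.05, and those between different digits ran from -0.16 to 0.10. In *fog-2* the same-digit correlations were -0.01, -0.09 and 0.09, and the others ran from -0.19 to 0.18. With so few animals per digit, such as 1 N2 animal with digit 1 at 1 egg/μL, these values could not decide whether the digit pairs animals. With the digit as a block the N2 share differed by -4.34 points (permutation p = 0.00534), and 0 of 78 members were called, as without the block. In *fog-2* the blocked share differed by -3.22 points (permutation p = 0.00092) and 17 members were called, and 58 were called across both strains. Over all genes the blocked fits called 18 lower in N2, 188 in *fog-2* and 278 across both strains. The limits are that depth was not used here, the relative scale, and animals that may have shared tubes.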
